A study of Mus musculus with 4 samples.

Results

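Molecular chaperones and genes of the unfolded protein response were compared between loricrin knockout and wildtype newborn mouse skin. The set held 43 genes chosen by name for their function, and 42 of them had a probe set annotated to that gene alone, among 13674 such genes on both array types together. Hsp90ab1, the constitutive cytosolic Hsp90, was not analysed here. By compartment the 42 were 21 cytosolic chaperones and co-chaperones, 13 chaperones and folding enzymes of the endoplasmic reticulum (ER), 3 mitochondrial chaperones, and 5 genes of unfolded protein response signalling. Loricrin is the main protein of the cornified envelope, the cross-linked shell of terminally differentiated keratinocytes. The knockout group was whole skin of mice of strain FVB/N that lack loricrin, taken at postnatal day 0. The wildtype group was whole skin of newborn FVB/N mice of the same day. The labels name no further allele or treatment in either group, and they do not say how the loricrin gene was inactivated, how many animals gave each RNA, or of which sex.

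Each genotype had 2 arrays, and each of the 2 array types held 1 knockout array and 1 wildtype array. The second array of a genotype is titled a replicate, but it carries other probe sets. Of the 42 genes, 35 were on the first array type only, 1 was on the second only and 6 were on both. Values are MAS5 signals, a background-corrected brightness per probe set on a linear scale. Signals under a floor of 77.6 (first type) or 133 (second type) were treated as that floor. The log2 ratio is knockout over wildtype, and a gene with several probe sets is given by its brightest one, judged on the mean of both arrays. With 1 array per genotype and type there is no replicate error and no test within a type, so genes were counted by size, at least 2-fold apart.

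Chaperones bind unfolded or partly folded proteins and release them in cycles driven by ATP. In the cytosol, J-domain proteins hand substrates to Hsp70, nucleotide exchange factors reset Hsp70, and some substrates pass on to Hsp90 or into the ring-shaped chaperonin TRiC. In the ER, the Hsp70 protein BiP, the Hsp90 protein GRP94, lectin chaperones and disulfide isomerases fold secreted and membrane proteins. When unfolded proteins build up, the cytosol answers through heat shock factor 1, which binds heat shock elements. The ER answers through the sensors IRE1, PERK and ATF6, whose transcription factors act on ER stress response elements. Keratinocytes of the upper epidermis make large amounts of structural and secreted protein before they die, and a spliced Xbp1 transcript marks ER stress signalling in many secretory cells.

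The labels and the tissue were checked first. Loricrin (Lor) had a first-type signal of 2013 in knockout skin against 41224 in wildtype skin by its brighter probe set, and another probe set was under the floor in both. The second type had no loricrin probe set among those used. Sex-linked transcripts differed too. On the first type, Xist read 857 in knockout skin and 24.7 in wildtype skin, and the Y-linked Eif2s3y read 42.7 and 1071. Y-linked Kdm5d had the same pattern on the second type, at 12.2 in knockout skin and 976 in wildtype skin, and genotype and sex cannot be told apart. Of 10 listed keratinocyte markers, 9 were on the first type and 6 lay above the floor in each array there. Their summed signal was 60527 in knockout skin and 121015 in wildtype skin with loricrin, and 58513 and 79792 without it. Krt1 read 18714 and 26636, while the basal factor Trp63 read 1906 and 913, and the basal keratins Krt5 and Krt14 read below the floor in both. Krt15 was below the first-type floor too, but read 26582 in knockout skin and 22304 in wildtype skin on the second type. A reading below the floor does not show that a transcript is absent. The 2 keratinocyte markers on the second type summed to 28384 in knockout skin and 25012 in wildtype skin. The dermal fibroblast markers summed to 4799 in knockout skin and 9093 in wildtype skin, with 6 and 9 of 9 above the floor and 6 of 9 at least 2-fold lower; Col1a2, Dcn and Col5a1 were not. Erythroid markers summed to 5477 and 21694, with 3 of 4 at least 2-fold lower. Melanocyte markers summed to 2403 in knockout skin and 1613 in wildtype skin, all 4 with ratios above 0, and Dct on the second type read 3901 and 1769. Immune markers summed to 2190.2 and 2089 and skeletal muscle markers to 576 and 778, with 0 past 2-fold in either list. Of these lists only the keratinocyte and melanocyte ones had markers on the second type. In whole skin, fewer cells of a type and less RNA per cell cannot be told apart, and the part of cell composition or sex in the ratios below was not tested.

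Among the listed chaperone and unfolded protein response genes, none with a signal above the floor differed by 2-fold between knockout and wildtype skin. Hspb1, Calr and Ddit3 had both signals below the floor and gave no ratio. On the first array type 37 of 41 genes had a signal above the floor, and 0 reached 2-fold in either direction. Of the 5977 genes above the floor there, 1.15% were higher and 1.91% lower, 3.06% in all. On the second type 6 of 7 lay above the floor and 0 passed, where 2.25% of 5606 genes were higher and 2.85% lower, 5.1% in all. All 43 of these ratios had both signals above the floor. On the first type the ratios ran from -0.52 for Dnaja1 to 0.73 for Hspa4, and the middle 50% of them lay between -0.15 and 0.34. Their median was 0.11, beside 0.02 for all genes, and 24 of 37 (64.9%) lay above 0, beside 51.8% of all genes. On the second type the median was -0.15, beside 0.00 for all genes (0.00374), and 2 of 6 lay above 0, beside 50.3%. The side of 0 on which most of the genes lay was thus not the same on the array types.

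**Figure D1:**
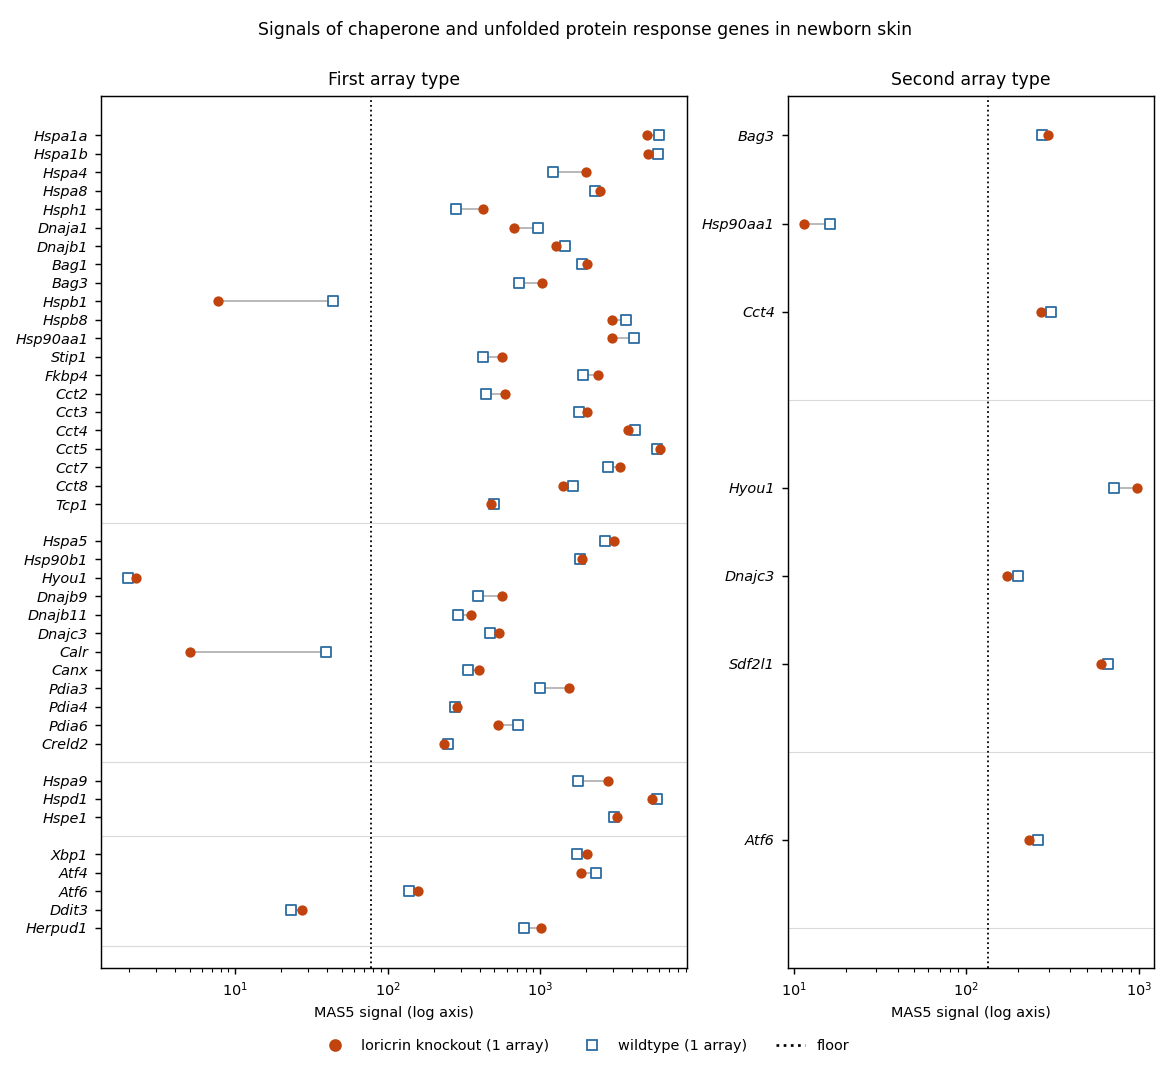
MAS5 signal (log axis) of each gene in the loricrin knockout array (filled circles) and the wildtype array (open squares) of the first (left) and second (right) array type, grouped from top to bottom into cytosolic, ER, mitochondrial and signalling genes, with the floor dotted. The paired signals lie close together for most genes, as for Hspe1 at 3184 in knockout and 3065 in wildtype, and the widest gaps, for Hspb1 and Calr, lie left of the floor.

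At the lower size of 1.5-fold, 4 of 37 genes on the first type were higher in knockout, where 6.12% of all genes were, and 0 were lower, where 7.06% were. The 4 were Hspa4, Hspa9, Pdia3 and Hsph1, at 1.65-fold, 1.56-fold, 1.54-fold and 1.51-fold. Under quantile normalization and under loess, only Hspa4 and Hspa9 of the 37 were at least 1.5-fold higher, and Dnaja1 was at least 1.5-fold lower under loess (-0.59). Without probe sets of shared sequence 5 were higher, Bag3 added, and Pdia6 was lower (-0.80), and spike-in scaling gave 26 higher. On the second type 0 of 6 passed 1.5-fold, where 9.1% of all genes were higher and 10.7% lower, 19.8% in all. Chaperone transcripts gave bright signals, and 22 of the 37 fell in the brightest of 4 equal bins of mean signal on the first type. In that bin 1.2% of all genes passed 2-fold and 6.22% passed 1.5-fold, and 3 of its 22 chaperone genes passed 1.5-fold. For scale, the ratios of the 1250 genes above the floor on both types differed between the types by a median of 0.34 on the log2 scale.

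All directions are relative to the typical probe set. The 9 spike-in control probe sets averaged a log2 ratio of -0.69 (first type) or -0.65 (second type). Whether the skins differed in their amount of RNA was not tested. Scaling on these probe sets moved the median of all genes to 0.67 and 0.62. Under that scaling all 37 first-type and all 6 second-type ratios lay above 0, and 10 and 1 of them passed 2-fold higher, where 19.1% and 18.4% of all genes passed in either direction. Of those genes 96.6% and 95.9% were higher in knockout, beside 37.7% and 44.1% in the main setting. The median of the chaperone genes less that of all genes was 0.12 on the first type under it, beside 0.09 in the main setting, and -0.12 beside -0.16 on the second. Under the other 4 scalings 2 of the 37 ratios, those of Hsp90b1 and Hspd1, took the other sign.

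Cytosolic chaperones were set against those of the ER and mitochondria. On the first type the 20 cytosolic genes above the floor had a median log2 ratio of 0.08, with 11 above 0 and 9 below. The 13 ER and mitochondrial genes had a median of 0.19, with 10 above 0 and 3 below. The cytosolic median less the ER and mitochondrial one was -0.11. On the second type it was 0.10, from only 2 cytosolic and 3 ER genes, at medians of -0.04 and -0.14. The sign of the difference thus was not the same on the array types. When a gene's probe sets were summarised by their median, the first-type medians were -0.04 for cytosolic and 0.06 for ER and mitochondrial genes.

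**Figure D2:**
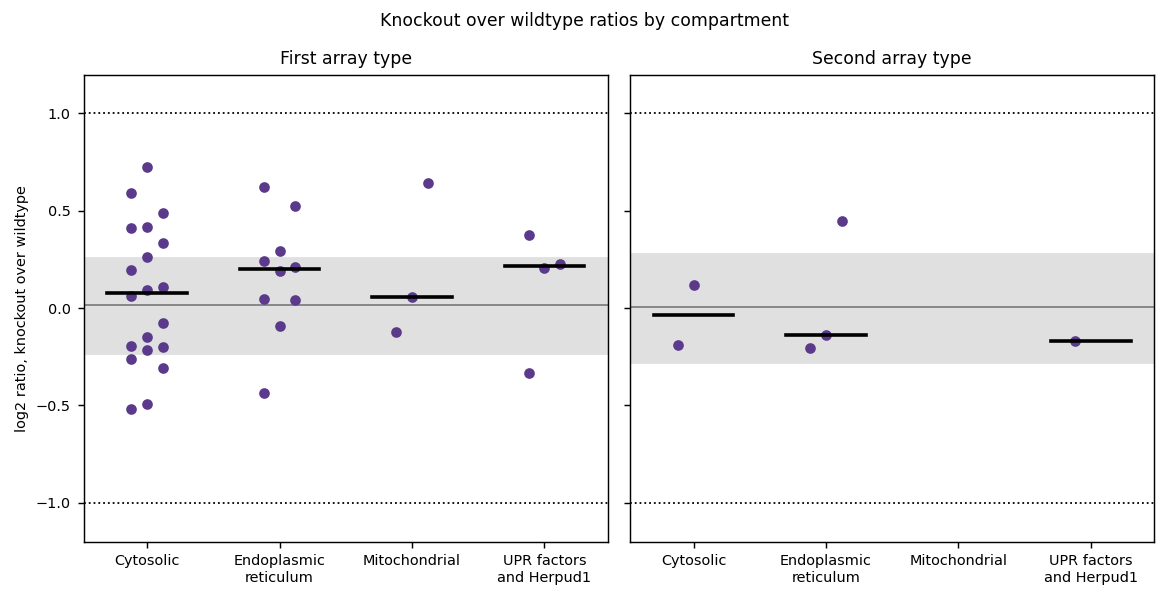
Log2 ratio of knockout over wildtype for each gene above the floor (points), by compartment (thick bars are medians), on the first and second array type. The grey band is the middle 50% of all genes with their median as a grey line, and dotted lines mark 2-fold; no point reaches them, and the cytosolic points spread from -0.52 to 0.73.

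By the probe sets used, the Hsp70 machinery of the cytosol held the widest spread, from -0.52 for Dnaja1 to 0.73 for Hspa4. This rank depended on probe sets. Without those of shared sequence, the ER lectins and isomerases spanned more, from -0.80 for Pdia6 to 0.62 for Pdia3. The stress-inducible Hsp70 genes Hspa1a and Hspa1b read 5011 and 5101 in knockout skin, against 6001 and 5869 in wildtype skin. Their log2 ratios were -0.26 and -0.20. The 2 genes are near-identical copies, so their probe sets may share signal. Even their promoter windows (250 bases before to 50 after the start site) had the same base at 296 of 300 positions. Hspa8, the constitutive Hsp70, read 2451 in knockout skin and 2295 in wildtype skin (0.09).

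By the probe sets used, the 2 listed J-domain co-chaperones of this system lay below 0 and the 4 listed exchange factors above it. Of all first-type genes, 51.8% lay above 0. Relatives outside the set did not follow this split on the first type. Of J proteins, Dnaja2 (0.27) and Dnajb2 (0.17) lay above 0 and Dnajb4 (-0.57) below. Of exchange factors, Hspa4l (-0.37) and Hspbp1 (-0.43) lay below 0 and Bag2 (0.44) above. Dnaja1, which delivers substrates to Hsp70, read 676 in knockout skin and 969 in wildtype skin, a log2 ratio of -0.52, the lowest of the 37. Dnajb1, its stress-inducible relative, read 1260 (1259.51) in knockout skin and 1442 in wildtype skin (-0.20). Hsph1 (Hsp110), a large exchange factor for Hsp70, read 421 in knockout skin and 279 in wildtype skin (0.59). Bag1 and Bag3, exchange factors of the BAG family of which Bag3 also links Hsp70 to autophagy, gave ratios of 0.11 and 0.49. Bag3 read 1019.5 in knockout skin and 726 in wildtype skin, and its other probe set read 732 and 488.

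Hspa4, a relative of Hsph1 with the same exchange function, had the highest ratio and also the least agreement among probe sets. The value used read 1989.5 in knockout skin and 1203 in wildtype skin, a log2 ratio of 0.73. A second probe set gave 0.63, but the other 3 gave -0.17, -0.28 and, with the knockout signal at the floor, -0.56 as a bound. With the median over its probe sets the ratio of Hspa4 was -0.17, so its direction depended on the probe set. Of the 10 first-type genes with several probe sets above the floor, 3 had ratios on both sides of 0, namely Hspa4, Dnajc3 and Cct5.

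**Figure D3:**
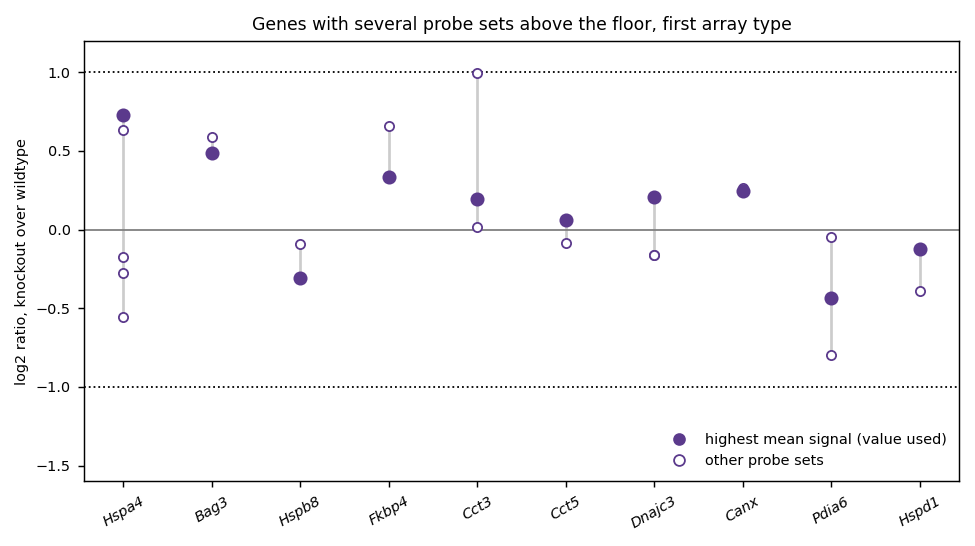
Log2 ratio of knockout over wildtype for every probe set above the floor of the 10 first-type genes with more than 1; filled points are the probe set of highest mean signal, open points the others, dotted lines 2-fold. Hspa4 spans -0.56 to 0.73 and Cct3 0.01 to 1.00, while those of Canx lie at 0.24 and 0.27.

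In the Hsp90 system the inducible chaperone and its co-chaperones lay on opposite sides of 0. Hsp90aa1 read 2943 in knockout skin and 4139 in wildtype skin, a log2 ratio of -0.49. Its second-type probe set lay below the floor. Stip1 (Hop), which bridges Hsp70 and Hsp90, read 562 in knockout skin and 423 in wildtype skin (0.41). Fkbp4, an immunophilin of steroid receptor complexes, read 2391 in knockout skin and 1894 in wildtype skin (0.34), and its other probe set gave 0.66. Both Fkbp4 probe sets carry suffixes that mark shared or incomplete probe sequence. None of these 3 genes passed 1.5-fold by the value used, where 13.2% of all first-type genes did in either direction.

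Of the 2 listed small heat shock proteins, 1 lay above the floor. Among other genes of these pathways, Hspb2 (0.51) and Cryab (0.28) lay above 0 on the first type. Both have probe sets whose suffix marks shared sequence. Hspb6 lay below 0 on the second type (-0.42). Hspb8, a partner of Bag3, read 2944 in knockout skin and 3645 in wildtype skin, a log2 ratio of -0.31. Hspb1 (Hsp25 in mouse), a known protein of differentiating keratinocytes, read 7.70 (7.69511) in knockout skin and 43.5 in wildtype skin. Both signals lie below the floor, so no ratio is given, and a probe set that reads near background does not show that the transcript is absent.

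The chaperonin TRiC, which folds actin and tubulin, gave a narrower range than the Hsp70 machinery. Its 7 listed subunits had ratios from -0.22 for Cct8 to 0.42 for Cct2, with a median of 0.06, 4 above 0 and 3 below. Cct6a, a subunit outside the set, gave -0.09 by a probe set whose suffix marks shared sequence. Cct5 read 6089 in knockout skin and 5838 in wildtype skin (0.06). Cct7 gave 0.27, Cct3 0.19, Tcp1 -0.07 and Cct4 -0.15. Cct2 read 586 in knockout skin and 439 in wildtype skin. The ratios of these subunits lay on both sides of 0. Only that of Cct2 exceeded 0.40 in size, the standard deviation of 1 log2 ratio estimated from the differences between the array types. Whether the subunits differ in direction thus cannot be told from these values. One of the Cct3 probe sets, of a suffix for shared sequence, read 2386 in knockout skin and 1196 in wildtype skin (1.00), close to 2-fold, while the others gave 0.19 and 0.01.

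Promoters show which cytosolic and mitochondrial genes carry the letters of a heat shock element. The palindrome GAANNTTC, searched on both strands, was found in RefSeq promoter windows (build GRCm38.p6) of 11 of the 36 listed genes that have a window (30.6%), and of 9.04% of 27025 genes. Of the 11, 9 were cytosolic and 2 mitochondrial. The stretches shown are those of the inducible Hsp70 pair, of the lowest and highest ratio among genes with the motif, and of the mitochondrial pair, with the fixed letters of the motif in capitals.
Hspa1a, chr17:34972243-34972270, minus strand: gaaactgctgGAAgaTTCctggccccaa
Hspa1b, chr17:34959325-34959352, minus strand: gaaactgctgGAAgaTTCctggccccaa
Dnaja1, chr4:40722334-40722361, plus strand: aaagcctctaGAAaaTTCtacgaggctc
Hsph1, chr5:149636278-149636305, minus strand: gcagattctgGAAagTTCtcctcagtag
Hspd1, chr1:55088054-55088081, minus strand: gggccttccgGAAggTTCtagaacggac
Hspe1, chr1:55088054-55088081, plus strand: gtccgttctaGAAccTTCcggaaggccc
The match lay 104 bases before the start site in both Hsp70 genes and 124 bases before it in Dnaja1. It began 21 bases into the transcript of Hsph1, by the nearer of its start sites. Dnaja1, Hsph1 and Hspd1 have windows at different start sites, and the other windows of Dnaja1 and Hspd1 held no match. The Hspd1 and Hspe1 stretches are 1 place read on opposite strands, since these genes lie head to head and share a promoter. The 10 measured genes with the motif had first-type ratios from -0.52 to 0.59, with 5 above 0, 5 below and a median of -0.03. The 14 measured genes with a window and none of the motifs searched had a median of 0.15, with 10 above 0.

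The ER chaperones that work with BiP lay slightly above 0 on the first type. All 5 measured there had ratios above 0, with a median of 0.21, though Hsp90b1 took the other sign under quantile normalization (-0.01) and Dnajc3 with the median over its probe sets (-0.16). Hspa5 (BiP), the central Hsp70 of the ER and a standard marker of ER stress, read 3032 in knockout skin and 2658 in wildtype skin, a log2 ratio of 0.19. Hsp90b1 (GRP94) read 1869 and 1809 (0.05). Dnajb9 (ERdj4), an IRE1-regulated J protein, read 557 in knockout skin and 387 in wildtype skin (0.52), while its other probe set lay below the floor. Dnajb11 gave 0.30 and Dnajc3 (p58IPK) 0.21. None of the 5 passed 1.5-fold, where 13.2% of all first-type genes did in either direction.

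On the second type the same functional group was mixed. Hyou1, the large ER exchange factor for BiP, read 971 in knockout skin and 712 in wildtype skin, a log2 ratio of 0.45, the highest of the 6 genes there. Its first-type probe set read 2.21 and 1.96, far below the floor. Sdf2l1, a BiP-associated protein measured on this type only, read 601 in knockout skin and 660.5 in wildtype skin (-0.14). Dnajc3 read 172 in knockout skin and 199 in wildtype skin (-0.21), opposite in sign to its first-type ratio.

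Lectin chaperones and disulfide isomerases had ratios on both sides of 0. Canx, the membrane-bound lectin chaperone, read 397 in knockout skin and 335 in wildtype skin (0.24). Pdia3, the isomerase that works with it on glycoproteins, read 1538 in knockout skin and 998 in wildtype skin, a log2 ratio of 0.62. Pdia4 read 285 and 277 (0.04), and Creld2, an ER stress-inducible protein, 233 and 248 (-0.09). Pdia6 went the other way from Pdia3, at 525 in knockout skin and 711 in wildtype skin (-0.44), and its other probe sets gave -0.80 and -0.05. Calr, the soluble lectin chaperone, read 5.004 in knockout skin and 39.2 in wildtype skin, both below the floor, so no ratio is given.

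ER stress response elements were searched in the same windows, which 12 of the ER genes have. The letters CCAAT and CCACG with 9 bases of any kind between them (ERSE), on either strand, were in the windows of 7 of the 36 listed genes with one, all 7 in the ER, and of 37 of 27025 genes (0.137%). The shorter ERSE-II, ATTGG and CCACG with 1 base of any kind between them and also searched on both strands, was in 2, Dnajb11 and Herpud1, and in 12 genes in all (0.0444%). The stretches are printed to show the letters that these ER genes and Herpud1 share, with the fixed letters in capitals. In 3 of them the ERSE is on the other strand and reads CGTGG first and ATTGG last.
Hspa5, chr2:34772015-34772053, plus strand: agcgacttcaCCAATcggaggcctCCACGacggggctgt
Hsp90b1, chr10:86705628-86705666, minus strand: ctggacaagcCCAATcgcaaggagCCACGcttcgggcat
Hsp90b1, chr10:86705523-86705561, minus strand: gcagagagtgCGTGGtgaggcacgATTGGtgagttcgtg
Dnajc3, chr14:118937817-118937855, plus strand: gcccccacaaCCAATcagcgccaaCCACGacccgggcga
Canx, chr11:50325790-50325828, minus strand: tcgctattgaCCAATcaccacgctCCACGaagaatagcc
Calr, chr8:84847065-84847103, minus strand: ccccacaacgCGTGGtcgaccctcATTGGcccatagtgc
Pdia6, chr12:17266481-17266519, plus strand: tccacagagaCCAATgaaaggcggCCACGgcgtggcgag
Creld2, chr15:88819510-88819548, plus strand: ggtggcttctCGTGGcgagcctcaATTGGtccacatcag
Herpud1, chr8:94386367-94386397, plus strand: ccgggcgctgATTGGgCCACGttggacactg
Dnajb11, chr16:22857842-22857872, plus strand: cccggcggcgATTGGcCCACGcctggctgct
The element of Hspa5 began 65 bases before the start site and that of Herpud1 52 bases before it. The 8 measured genes with either element had first-type ratios from -0.44 for Pdia6 to 0.38 for Herpud1, with a median of 0.20, 6 above 0 and 2 below. By the values used none of them reached 1.5-fold, where 13.2% of all first-type genes did in either direction. Another Pdia6 probe set gave -0.80, past 1.5-fold. A match of letters describes the window and is not a measured binding site.

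**Figure D4:**
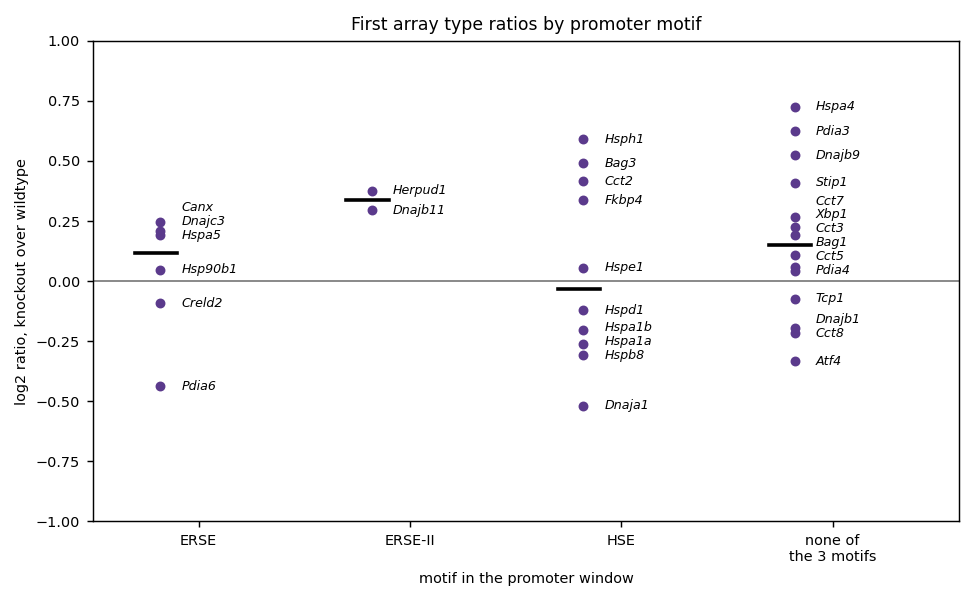
First-type log2 ratio of knockout over wildtype for the genes above the floor that have a RefSeq promoter window, by the motif in that window, with medians as short bars. The ERSE genes run from -0.44 to 0.24, the 2 ERSE-II genes lie at 0.30 and 0.38, and the heat shock element genes fall on both sides of 0, from -0.52 to 0.59.

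The 3 listed mitochondrial chaperones were on the first type only. Other mitochondrial genes of these pathways had a median of 0.31 over 5 genes above the floor on the first type. On the second type their median was 0.07 over 4 genes. Hspa9 (mortalin), the Hsp70 of the mitochondrial matrix, read 2768 in knockout skin and 1770.1 in wildtype skin, a log2 ratio of 0.64. The chaperonin Hspd1 (Hsp60) read 5383 in knockout skin and 5857 in wildtype skin (-0.12). Its partner Hspe1 (Hsp10), transcribed from the same promoter region, read 3184 and 3065 (0.06). The chaperonin pair thus stayed near equality by the probe sets used. Hspd1 took the other sign under loess (0.01). Its other probe set read 118 in knockout skin and 155 in wildtype skin (-0.39), and the median over its probe sets was -0.26.

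The signalling genes of the unfolded protein response were also close to equal. Xbp1, the factor spliced by IRE1, read 2038 in knockout skin and 1741 in wildtype skin, a log2 ratio of 0.23. These values do not separate spliced from unspliced Xbp1. Atf4, translated when PERK slows general translation, read 1843 in knockout skin and 2323 in wildtype skin (-0.33). Herpud1, an ER membrane protein of ER-associated degradation, read 1012 in knockout skin and 780.1 in wildtype skin (0.38). Ddit3 (CHOP), the factor linked to cell death under lasting ER stress, read 27.5 and 23.0, both below the floor. Atf6 gave 0.21 on the first type, at 158 in knockout skin and 137 in wildtype skin, and -0.17 on the second, at 230.1 and 258.

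The genes above the floor on both array types allowed a test with the array type as a block. Of the listed genes these were Bag3, Cct4, Dnajc3 and Atf6. Their mean log2 ratios were 0.30 (SE 0.24) for Bag3, -0.17 (SE 0.23) for Cct4, 0.02 (SE 0.24) for Atf6 and 0.00 (0.00150, SE 0.24) for Dnajc3. Bag3 lay above 0 on both types, at 0.49 and 0.12, and Cct4 below 0 on both, at -0.15 and -0.19. None passed, with limma adjusted p-values of 0.732 for Bag3, 0.860 for Cct4, 0.994 for Atf6 and 0.997 for Dnajc3 over 1250 genes, of which 0% (0 genes) passed. At an unadjusted limma p under 0.05 there were 103 genes, none of these 4 among them. The SEs and p-values rest on 1 residual degree of freedom per gene and on variance pooled over genes. That degree of freedom is the difference of a gene's ratios between the array types, which carry other probe sets. The SEs and p-values measure no spread between animals, and no label states that different animals were used for the arrays of 1 genotype.

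Other genes of the same pathways, from a list of 93, were set beside the named set. On the first type 64 lay above the floor and 0 were at least 2-fold higher or lower, where 3.06% of all genes were. Their median was 0.09, with 38 (59.4%) above 0 and 26 below, beside 51.8% of all genes above 0. On the second type 34 lay above the floor, with a median of -0.14. Of them 12 (35.3%) lay above 0 and 22 below, beside 50.3% of all genes above 0. There 1 gene of the list passed 2-fold, where 5.1% of all genes did. It was Fkbp14, an ER prolyl isomerase that acts on procollagen, at 145 in knockout skin and 354 in wildtype skin (-1.29). Its knockout signal lay just above the floor of 133. On the first type the brightest of the list were Cebpb, a stress-responsive transcription factor (0.02), Vcp, the ATPase of ER-associated degradation (0.21), Erp29, an ER folding factor (0.14), and the J protein Dnajb6 (-0.28). Serpinh1 (Hsp47), the ER chaperone of collagen, was looked at after its value was seen and read 462 in knockout skin and 624 in wildtype skin (-0.43). In the same arrays Col1a1 read 172 in knockout skin and 1545 in wildtype skin but Col1a2 1082 and 1076, and the part of dermal content in the Serpinh1 and Fkbp14 ratios was not tested.

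**Figure D5:**
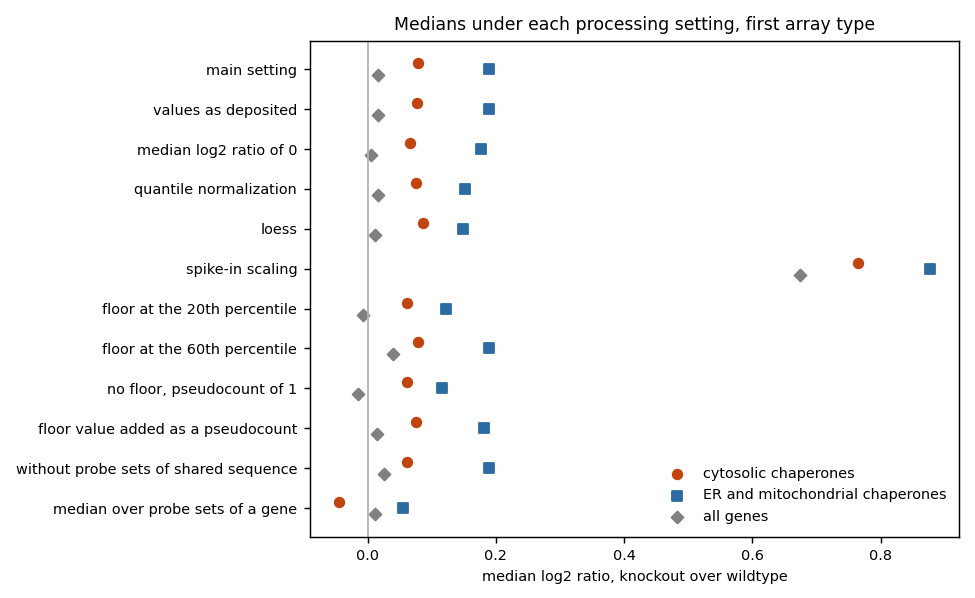
Median first-type log2 ratio under each processing setting for cytosolic chaperones (circles), ER and mitochondrial chaperones (squares) and all genes (diamonds). The medians move together to 0.76, 0.88 and 0.67 under spike-in scaling, and the squares lie right of the circles in every setting shown.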

How the data were processed

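The deposited values are array intensity signals per probe set on a linear scale, made by the authors with MAS5, per the submitters' processing notes. Which MAS5 version, target and filters were used is not given in the sources used here. The 4 columns had 2% trimmed means between 500.2 and 500.4.

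Within a type, the knockout and wildtype arrays were scaled to the same 2% trimmed mean, floored at the mean of their 40th percentiles and compared as log2 ratios of knockout over wildtype. After scaling, 66 control probe sets per type were dropped. Probe sets with 1 gene in the platform annotation were used (10833 and 10581), with symbols updated through a RefSeq gene table (10817 and 10550 matched). Genes on both types were fitted with limma 3.58.1 (lmFit and eBayes, array type as a block, Benjamini-Hochberg over all 1250 genes, threshold 0.05). The number of arrays limits the precision. Every listed gene is named. Of the 93 other pathway genes, those past 2-fold are named, or else the 4 brightest per type. Some others are named beside listed genes of the same family or function. Members and lists were chosen with earlier results of these data known. The steps were tested on simulated data. Promoters come from RefSeq (GRCm38.p6), and 36 of the 43 listed genes matched. Alternatives covered scaling, floor, fold, probe sets and the block.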

Additional observations from a re-analysis of the deposited data

How the results depend on the processing

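No listed gene passed 2-fold in the main setting. On the first type the count was 1 under a 20th-percentile floor and 2 with no floor and a pseudocount of 1 (Hspb1 and Calr, lower in knockout and both below the main floor), 4 with a 1.5-fold rule and 10 under spike-in scaling; on the second type it was 1 under spike-in scaling. The other alternatives left both counts at 0. Spike-in scaling moved the median log2 ratio to 0.80 (first type) and 0.50 (second type). The 60th-percentile floor gave a second-type median of 0.16, where only Hyou1 and Sdf2l1 were left. The cytosolic less ER and mitochondrial difference ran from -0.13 to -0.06 over the first-type alternatives. It was 0.09 to 0.12 on the second type, but -0.05 with no floor and without a value under the 60th-percentile floor. Limma called 0 of the listed genes on both types in every alternative run but spike-in scaling, where it called 2 (Bag3 and Atf6) among 552 of 1263 genes. With no replicate block, that is without the array type as a block, it called 0 genes in all and 0 had an unadjusted p under 0.05. Leaving out each array in turn was not run, because it leaves no residual degrees of freedom. The array titled a replicate in each genotype is the one on the second type, so the block on array type is also the pairing by replicate. Under the 60th-percentile floor no listed gene was left on both types, and limma gave no value. Single-gene values were held against a spread of 0.40, the standard deviation of 1 log2 ratio estimated from the differences between the array types. Of 467 single-gene values under the alternatives, 44 moved by more than that, 43 of them under spike-in scaling. The other was Hspa4 with the median over probe sets. Smaller moves were not counted, such as Dnajc3 to -0.16 with that median and Pdia6 to -0.80 without probe sets of shared sequence. Counts over all genes past 2-fold moved with the floor: 261 higher and 462 lower at the 20th percentile on the first type (69 and 114 in the main setting) and 27 and 31 at the 60th; 414 and 488 on the second (126 and 160) and 29 and 41. With no floor they were 438 and 707 (first type) and 615 and 705 (second type). A pseudocount equal to the floor gave 33 and 78, and 77 and 114.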

Other observations

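Of the 93 other pathway genes, 19 lay above the floor on both array types, and 3 of these (15.8%) had an unadjusted limma p under 0.05, beside 8.24% of all 1250 genes. The 3 were picked once their values were known. Sec62, a subunit of the ER channel that takes up newly made proteins, read 462 in knockout skin and 684 in wildtype skin (first type), and 5387 and 9164 (second type). The mean of its log2 ratios was -0.67 (SE 0.23), below 0 on 2 of 2 types, with a limma adjusted p of 0.586. Edem2, which trims glycans of misfolded glycoproteins, had ratios of 0.34 and 0.89, and a mean of 0.61 (SE 0.25, limma adjusted p = 0.586). Cdc37, the co-chaperone that brings kinases to Hsp90, had ratios of 0.34 and 0.78, and a mean of 0.56 (SE 0.24, limma adjusted p = 0.591). None passed over all 1250 genes. The Sec62 probe sets of both types and the second-type probe set of Edem2 carry suffixes that mark shared or incomplete probe sequence. Under spike-in scaling the mean ratio of Sec62 was 0.00 (0.00216), while those of Edem2 and Cdc37 were 1.28 and 1.23.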
